A study of Drosophila melanogaster with 4 samples.

Results

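Paired H3K4me1 domains are pairs of called regions that face each other across a short stretch with no call. The members were selected on gap length and domain width in the region list that the authors called for the replicate set, on chromosome arms 2L, 3L and 3R. Neighbouring regions 500 bp or less apart were joined into domains. A pair became a member where both adjacent domains were 10000 bp wide or less and the gap between them was over 500 bp and up to 2000 bp. Every range of lengths given in this way excludes its lower limit and includes its upper one. This gave 906 pairs among the 4435 pairs of adjacent domains on the 3 arms, or 20.4%, and among 7620 in the whole list. The lists come from chromatin immunoprecipitation and sequencing (ChIP) of head nuclei of adult *Drosophila melanogaster*. The strain was wild-type Oregon-R (Oregon-R-modENCODE), grown in population cages. The labels gave the stage as Mixed Adult and stated neither sex nor age. There were 2 ChIP libraries made with the antibody ab8895 (new lot 2), each with its own input library. All were of 1 condition, so no contrast between conditions was possible. Heads were separated by sieving, and the head label could not be checked here, because no gene was assigned to any region. The labels do not say whether the libraries were made from different fly collections, so the spread between replicates may be technical.

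H3K4me1 is histone H3 with a single methyl group on lysine 4. In flies it is laid down mainly by the Trr methyltransferase complex, and it marks enhancers and the borders of active genes. At an active promoter the mark is usually low over the start site, where H3K4me3 replaces it and nucleosomes are depleted, and higher on both sides. At an active enhancer the mark often lies on the nucleosomes beside the factor-bound site. Whether the gaps described here lie at such elements was not tested. Coordinates are those of FlyBase release 5, and no gene was assigned to a position, since no annotation of that release was used here.

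The paired domains were a frequent arrangement. The 906 gaps were flanked by 1567 domains, which was 35.3% of the 4438 domains of the 3 arms and 40.4% of those 10000 bp wide or less. Of these domains, 245 flanked a gap on each side and 1322 flanked 1 gap. In 692 pairs, or 76.4%, both flanks were single regions as called. The flanks held 5.85 Mb and the gaps 1.04 Mb. A further 375 gaps of 500 to 2000 bp had a flank wider than 10000 bp and are not members. Flank domains had a median width of 2959 bp and a median score of 0.54, against 2392 bp and 0.51 for the 2313 other domains of 10000 bp or less. The score is the authors' own enrichment value per region, whose scale the headers do not state. Flanks are compared by score within 1 list. Where score differences of separate lists stand side by side, the lists may differ in scale. Domains over 10000 bp scored 0.87 in the median.

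The density of pairs was similar on the 3 arms. There were 277 pairs on 2L, 302 on 3L and 327 on 3R, or 12.0, 12.3 and 11.7 per Mb. In 74 windows of 1 Mb the number of pairs ran from 0 to 22 with a median of 12 and quartiles of 10 and 15. Only 1 window held none, and the windows with 22 pairs were all on 3L. The centromeric ends of the arms differed from each other. The proximal 2 Mb of 3L held 2 pairs, or 1 per Mb, against 13.3 per Mb on the rest of that arm. The proximal 2 Mb held 13 pairs per Mb on 2L and 16.5 on 3R, against 11.9 and 11.3 on the rest. These densities were not tested and were not corrected for sequence where reads cannot be placed.

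Gap length fell off smoothly across the class, and no preferred length stood out. The member gaps had a median of 1080.5 bp, with quartiles of 760 and 1499.75 bp. Among all 3438 adjacent pairs with flanks of 10000 bp or less, 395 had a gap of 500 to 1000 bp, 285 of 1000 to 1500 bp and 226 of 1500 to 2000 bp. The next steps of the same length, 2000 to 2500 bp and 2500 to 3000 bp, held 174 and 140 pairs. The decline therefore ran through the upper limit of the class without a break. Among gaps as called, before joining and with no limit on flank width, a decline also ran through the lower limit. Of these, 434 were 250 to 500 bp long and 327 were 500 to 750 bp long. At the limits themselves, the shortest member gap was 1 bp over the joining limit (3R from 10538524 to 10539024) and the longest gap that was joined was 499 bp (3L from 19225139 to 19225637). The longest member gap was 1999 bp (3L from 11175838 to 11177836) and the shortest gap beyond was 1 bp over the upper limit (2L from 7927203 to 7929203). The widest member flank was 9985 bp, and the narrowest flank that kept a pair out was 10017 bp.

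How far short gaps exceeded the number for independently placed domains depended on which gaps set the mean. A mean gap length was taken on each arm over all gaps between flanks of 10000 bp or less. Gaps beside wider domains did not enter. If gap lengths above 500 bp fell off exponentially with that mean, as for domains placed independently, 385 pairs would be expected. The observed 906 were 2.35 times that number. The ratio was 2.74 on 2L, 2.40 on 3L and 2.07 on 3R. The means behind it, 14658 bp on 2L, 13348 bp on 3L and 12001 bp on 3R, include long stretches with no call. When the exponential was fitted to gaps of 500 to 10000 bp only, 808 pairs were expected and the ratio was 1.12, with 1.14, 1.13 and 1.09 on the 3 arms. The ratio thus depended on whether the long gaps entered. The members were among the gaps of both fits, so the expected numbers were not independent of the observed 906. These are closed-form values given as a description. Gap length chose the members, so no test was made.

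**Figure D1:**
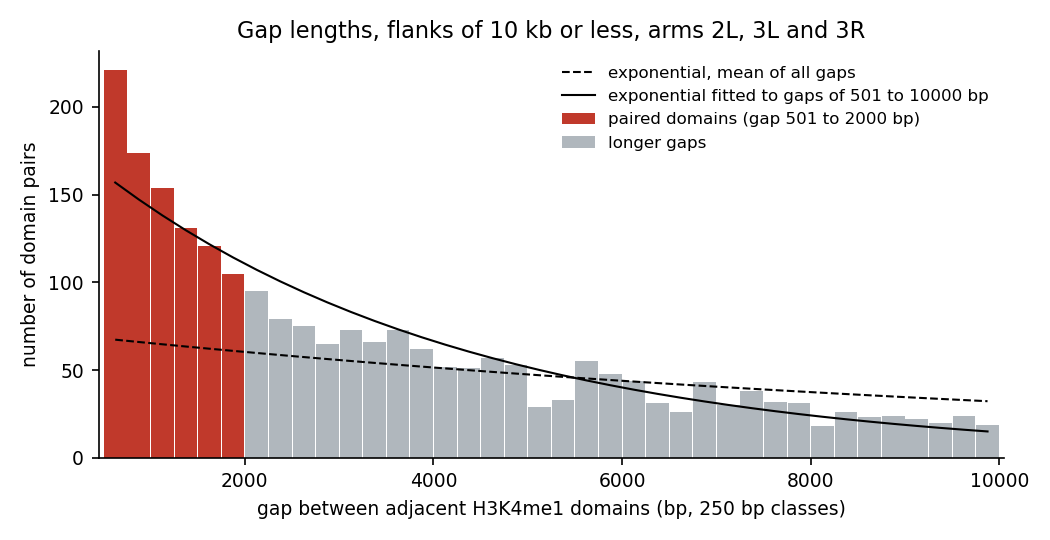
Number of pairs of adjacent H3K4me1 domains (flanks of 10000 bp or less, arms 2L, 3L and 3R) by gap length in classes of 250 bp, with the 906 paired domains in red and longer gaps in grey. The lines are exponential fall-offs with the mean of all gaps between such flanks (dashed) and fitted to those of 500 to 10000 bp (solid). The counts fall steadily, from 221 pairs at 500 to 750 bp to 105 at 1750 to 2000 bp and 95 at 2000 to 2250 bp.

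The flanks of a pair were usually unequal in width. The narrower flank had a median of 2057.5 bp and the wider one 4575 bp, and the ratio of narrower to wider had a median of 0.59 with quartiles of 0.38 and 0.79. In 215 pairs, or 23.7% (exact 95% binomial interval 21.0% to 26.6%), the ratio was 0.8 or more, and in 361 pairs, or 39.8% (36.6% to 43.1%), it was under 0.5. The same ratio had a median of 0.53 over 801 pairs with gaps of 2000 to 5000 bp, 0.56 over 616 pairs with gaps of 5000 to 10000 bp and 0.56 over 1115 pairs with longer gaps. The shares with a ratio of 0.8 or more were 20.6%, 23.5% and 22.2% in these classes. The shares with a ratio under 0.5 were 46.8% (43.3% to 50.3%), 43.0% (39.1% to 47.0%) and 41.2% (38.3% to 44.1%). The share with a ratio under 0.5 was lowest in the paired domains. Pairs can share a flank within and between classes and the rule limits width, so the intervals were not used as a test. No side was favoured: the left flank was the wider in 50.9% (47.6% to 54.2%) of the pairs.

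The authors' scores of the flanks were weakly related. The absolute difference of the flank scores had a median of 0.14 in the pairs, with quartiles of 0.06 and 0.27. It was 0.14, 0.16 and 0.14 in the classes with gaps of 2000 to 5000 bp, 5000 to 10000 bp and over 10000 bp. Left and right scores correlated with a Pearson r of 0.21 and a Spearman rho of 0.23 over the 906 pairs. The rho was 0.16, 0.09 and 0.10 in the classes with longer gaps. The values describe pairs of 1 list, which share its libraries and, where pairs follow each other, a flank. The median of the lower-scoring flank was 0.47 and that of the higher-scoring one 0.66, against 0.45 and 0.62 beside gaps of 2000 to 5000 bp and 0.44 and 0.58 beside gaps over 10000 bp. The wider flank scored higher in 645 of 905 pairs of unequal width, or 71.3% (68.2% to 74.2%), and in 69.0% to 73.1% of the pairs of the other classes. Within the class, gap length and score difference had a rho of 0.00.

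**Figure D2:**
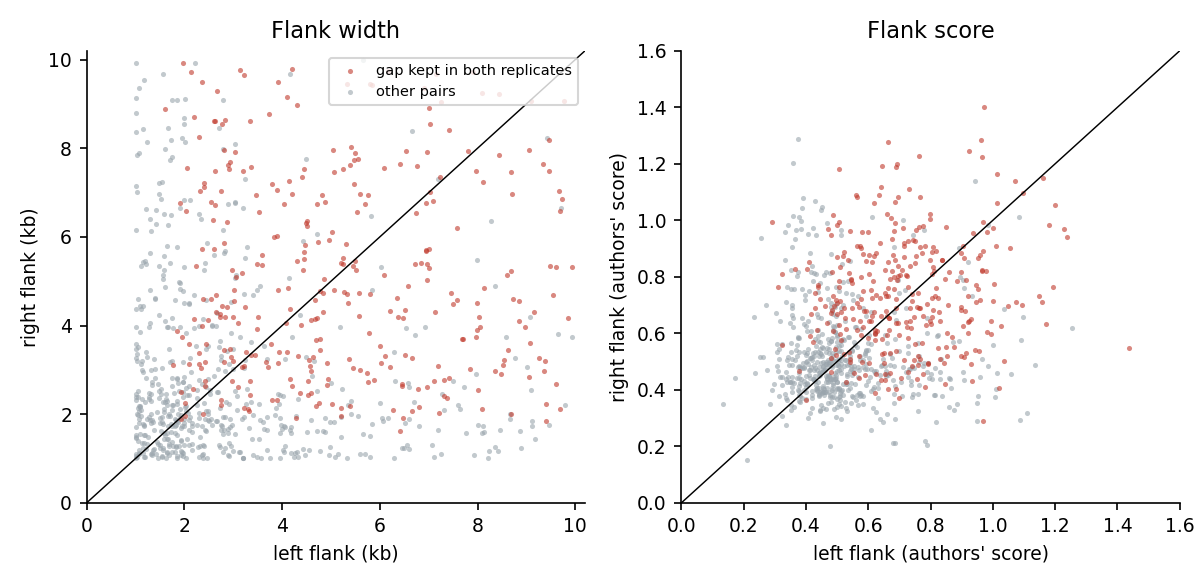
Width in kb (left panel) and authors' score (right panel) of the left flank against the right flank for each pair, in red where the gap was kept in both replicates and in grey otherwise; the line marks equal flanks. Points scatter widely on both sides of the line, with a rho of 0.17 for width and 0.23 for score, and red points lie at greater width and score; 1 pair with a left score of 3.78 is outside the right panel.

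The gap itself was nearly empty of calls in the replicate lists, while coverage of the flanks was partial. A base at the centre of the gap lay in a called region in 0.331% of the pairs in replicate 1 and in 5.63% in replicate 2. Coverage peaked at 63.9% at 2000 bp to the left of the centre and at 64.3% at 1700 bp to the right in replicate 1. In replicate 2 the peaks were 59.7% at 2000 bp and 59.8% at 1800 bp. At 6000 bp from the centre the replicates were down to between 30.1% and 34.5%. The arms as a whole were covered to 22.7% in replicate 1 and 21.3% in replicate 2. The dip was thus found in each replicate list. Left and right follow the coordinates, so the like height of its sides over all pairs does not show whether single pairs were symmetric. Over all gap bases, replicate 1 regions covered 1.82% and replicate 2 regions 8.03%, against 0.692% and 4.23% in gaps of 2000 to 5000 bp. No base was covered in 677 gaps in replicate 1, in 557 gaps in replicate 2 and in 376 gaps, or 41.5%, in either. The replicate-set list and the replicate lists share their libraries, and these values are a description with no test.

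**Figure D3:**
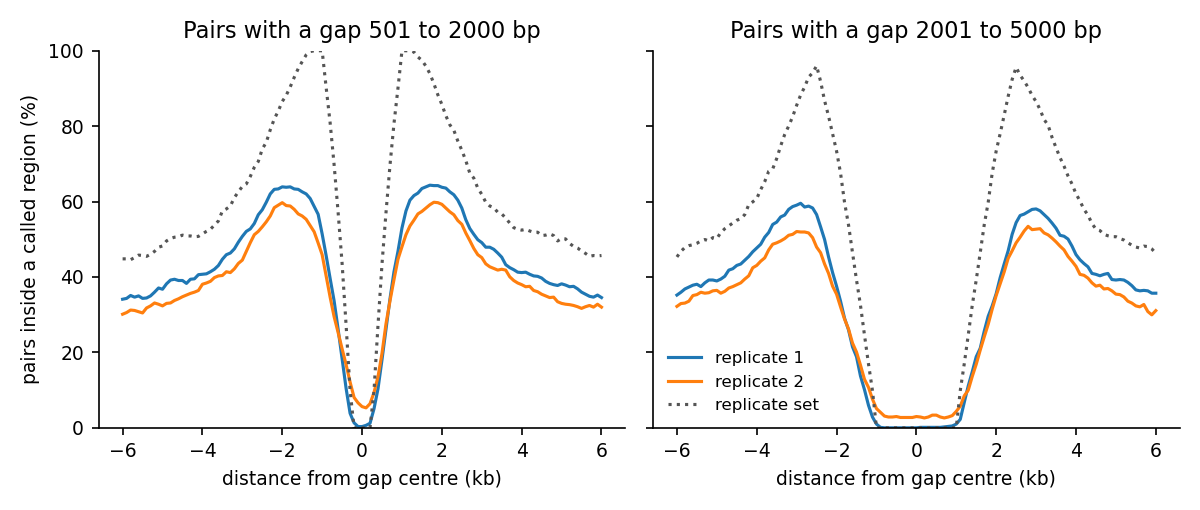
Share of pairs, in percent, that lie inside a called region at each distance in kb from the gap centre, for pairs with gaps of 500 to 2000 bp (left) and of 2000 to 5000 bp (right); lines are replicate 1, replicate 2 and the replicate set. In the replicate set the empty centre follows from how the pairs were chosen; replicate 1 falls to 0.331% and replicate 2 to 5.63% at the centre of the shorter gaps, between shoulders of 59.7% to 64.3%.

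Each gap was then sorted in each replicate list, after the same joining across 500 bp. On the 3 arms the replicate 1 list held 4521 regions and the replicate 2 list 5055, against 5561 in the replicate set. It was kept where a replicate domain overlapped each flank by at least 1 bp and no domain reached both. It was bridged where 1 domain reached both flanks, and otherwise 1 or both flanks were missing. Replicate 1 kept 480 of the 906 gaps, or 53.0% (49.7% to 56.3%), and replicate 2 kept 438, or 48.3% (45.0% to 51.7%). Of all adjacent domain pairs on the 3 arms, 51.1% were kept in replicate 1 and 48.5% in replicate 2; of those with flanks of 10000 bp or less, 43.4% and 41.3% were. Both replicates kept 326 gaps, or 36.0% (32.9% to 39.2%). The share kept in both was 35.3% over all adjacent pairs and 26.9% over those with flanks of 10000 bp or less. Both of these include the members. The members' share was near that of all adjacent pairs, which also hold flanks over 10000 bp. It was above that of pairs with flanks of 10000 bp or less. A further 154 gaps were kept in replicate 1 only, 112 in replicate 2 only and 314 in neither.

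Where a gap was not kept, a flank was usually missing rather than the gap bridged. A pair with a missing flank was counted as such even where a replicate region covered part of its gap. In replicate 1, 317 pairs lacked 1 flank and 102 lacked both, and 7 gaps were bridged. In replicate 2, 321 pairs lacked 1 flank and 100 lacked both, and 47 gaps were bridged. Bridging in either replicate concerned 54 gaps, or 5.96% (4.51% to 7.71%). It concerned 71 of all 4435 adjacent pairs, or 1.6%, and 56 of the 3438 with flanks of 10000 bp or less, or 1.63%. Both counts include the 54 members. Outside the class it was 2 of 801 beside gaps of 2000 to 5000 bp and 0 beside longer gaps. No member gap was bridged in both replicates. A count of 0 of 906 allows a share of up to 0.331% by a floor of 3 counts. By the exact 95% interval it allows up to 0.406%. Where both flanks were present, replicate 1 kept 98.6% (97.1% to 99.4%) of 487 gaps and replicate 2 kept 90.3% (87.3% to 92.8%) of 485. Both replicates kept 326 of the 356 gaps whose flanks were present in both, or 91.6% (88.2% to 94.2%), and 248 of 249 with gaps of 2000 to 5000 bp. With replicate regions as called, before joining, 38.6% of the 906 gaps were kept in both, against 36.0% after joining. Part of the bridging of member gaps thus came from the joining. Among the 54 bridged gaps the median length was 649.5 bp, and 35 were 500 to 750 bp long. That shortest class had 15.8% of its gaps bridged in either replicate, and the classes above 750 bp had 0.952% to 4.58%. Replicate regions were first joined across 500 bp, so a gap just over that length could be bridged with little of it covered. On 2L a gap of 534 bp was bridged in replicate 1 with 11.8% of it covered. The joining limit thus entered the trend with length and the contrast with longer gaps. The share kept in both showed no such trend with length: it was 34.7% (30.0% to 39.6%) at 500 to 1000 bp, 37.5% (31.9% to 43.4%) at 1000 to 1500 bp and 36.3% (30.0% to 42.9%) at 1500 to 2000 bp.

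The width of the narrower flank went with whether the gap was kept. Width was not separated from score here. The median lower flank score was 0.42, 0.38, 0.51 and 0.64 in the 4 width steps that follow. Presence needed an overlap of only 1 bp, which a wider flank meets more easily. No gap of the 237 pairs with a narrower flank of 1000 to 1500 bp was kept in both replicates, which allows a share of up to 1.27% by the floor of 3 counts and of up to 1.54% by the exact 95% interval. On these arms no region of either replicate list was narrower than 1301 bp, and 170 of the 1567 flank domains were. The share was 7.00% (3.88% to 11.5%) of 200 pairs at 1500 to 2000 bp, 50.9% (44.0% to 57.8%) of 214 at 2000 to 3000 bp and 79.6% (74.1% to 84.4%) of 255 above 3000 bp. With a narrower flank above 3000 bp, the shares beside gaps of 2000 to 5000 bp, 5000 to 10000 bp and over 10000 bp were 82.6% (76.2% to 87.8%), 74.0% (64.3% to 82.3%) and 75.6% (68.2% to 82.1%). At equal flank width the intervals of the paired domains thus overlapped those of pairs 2000 to 5000 bp apart. Without regard to width, the share was 36.0% in the paired domains and 31.0%, 22.6% and 19.1% in the classes with longer gaps. Narrow flanks of 1000 to 1500 bp made up 26.2% of the paired domains and 32.3%, 39.1% and 43.8% of the other classes. At 2000 to 3000 bp the share was 50.9% in the paired domains and 36.4% (29.5% to 43.8%) beside gaps over 10000 bp.

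**Figure D4:**
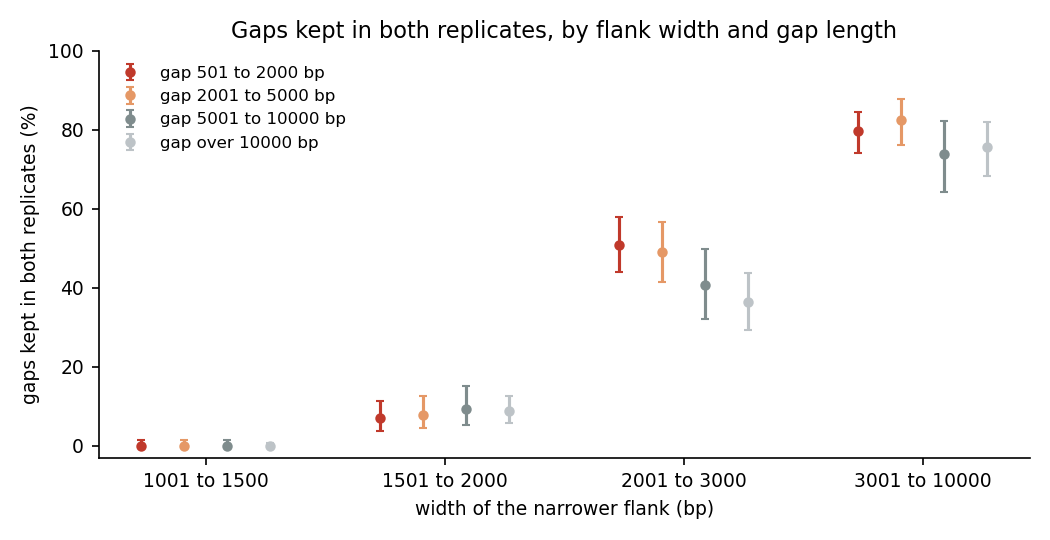
Share of gaps kept in both replicates, in percent with exact 95% binomial intervals, by width of the narrower flank in bp and by gap length (colours). The share rises with flank width in every gap class, from 0 of 237 to 79.6% in the paired domains, and at more than 3000 bp lies between 74.0% and 82.6% in all 4 classes.

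Single flanks showed the same pattern. Replicate 1 had a region on 1114 of the 1567 flank domains, or 71.1%, and replicate 2 on 1116, or 71.2%. Of the 481 flanks of 1000 to 2000 bp, 24.5% were present in replicate 1 and 34.1% in replicate 2, and of the 579 flanks over 4000 bp 98.1% and 96.9%. Missing flanks scored 0.44 in the median against 0.64 for present ones in replicate 1, and 0.46 against 0.64 in replicate 2. Where 1 flank was missing, it was the narrower one in 89.6% (85.7% to 92.7%) of 317 pairs in replicate 1 and in 83.8% (79.3% to 87.7%) of 321 pairs in replicate 2. It was the left one in 50.5% and 50.2%. The sequencing depth behind the lists was unknown.

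Compared with the other 580 pairs, the 326 kept in both replicates had wider and higher-scoring flanks. Their narrower flank had a median of 3375 bp and their lower score one of 0.61, against 1641 bp and 0.43. Their gaps were no longer in the replicate set, with a median of 1070 bp against 1094 bp. By arm, 88 pairs on 2L, 108 on 3L and 130 on 3R were kept in both, or 31.8% (26.3% to 37.6%), 35.8% (30.4% to 41.5%) and 39.8% (34.4% to 45.3%). These intervals overlap.

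In each replicate the kept gaps were longer than in the replicate set. Over the 326 pairs the median gap measured 1507.5 bp in replicate 1. It measured 1837 bp in replicate 2, against 1070 bp in the replicate set. The gap was longer than in the replicate set in 297 pairs, or 91.1%, in replicate 1 and in 278, or 85.3%, in replicate 2. The classes with longer gaps showed the same, with 91.1% to 92.8% in replicate 1 and 83.6% to 85.1% in replicate 2. In 148 pairs, or 45.4%, it was 500 to 2000 bp in both replicates. The length in replicate 1 and that in replicate 2 had a Spearman rho of 0.38 and a Pearson r of 0.27 over the pairs. The rho was 0.58, 0.64 and 0.98 in the classes with longer gaps, which span wider ranges of length. The centres of the gap lay a median of 290.5 bp apart between the replicates, with quartiles of 132 and 624 bp, and within 500 bp in 230 pairs, or 70.6%. In 42 pairs they were 1000 bp or more apart. The median distance was 338 bp beside gaps of 2000 to 5000 bp and 321 bp beside gaps over 10000 bp.

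**Figure D5:**
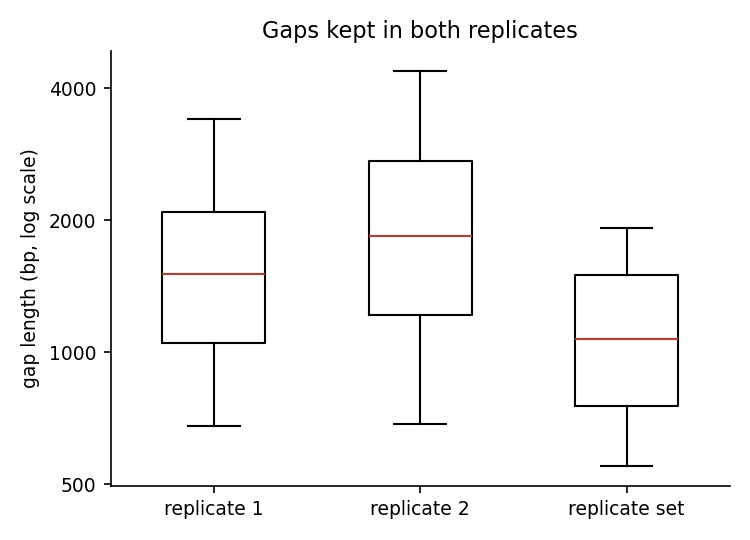
Length of the 326 gaps kept in both replicates, in bp on a log scale, as measured in replicate 1, in replicate 2 and in the replicate set; boxes span the quartiles, red lines are medians and whiskers reach the 5th and 95th percentiles. The medians are 1507.5 bp for replicate 1, 1837 bp for replicate 2 and 1070 bp for the replicate set, where the rule limits length to 2000 bp.

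The replicates shared in part which flank was the stronger. The same flank had the higher score in both replicate lists in 224 of the 326 pairs, or 68.7% (63.4% to 73.7%). The left-minus-right difference of scores had a rho of 0.54 and an r of 0.54 between the lists. The same-flank share was 63.7% beside gaps of 2000 to 5000 bp, 67.6% beside gaps of 5000 to 10000 bp and 69.0% beside longer ones, so that the value of the paired domains lay within the range of the others. The scores of the flanks themselves were weakly related within replicate 1, with a rho of 0.15.

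When the same rule was run on each replicate's own list, the pairs it found coincided in part. Replicate 1 gave 778 pairs and replicate 2 gave 1081. Of the replicate 1 gaps 276, or 35.5% (32.1% to 39.0%), overlapped a gap of a replicate 2 pair, which was 25.5% of the replicate 2 gaps. Of the 906 gaps of the replicate set, 37.6% (34.5% to 40.9%) overlapped a gap of a replicate 1 pair and 27.0% (24.2% to 30.1%) one of a replicate 2 pair. From the other side these were 43.8% of the replicate 1 and 22.7% of the replicate 2 pairs. The limits of 500 to 2000 bp and 10000 bp thus picked different pairs in each list more often than the same ones.

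The pairs with the strongest flanks, ranked by the score of the lower-scoring flank among those kept in both replicates, were led by 2L. There the gap from 7734618 to 7735263 (646 bp) lay between flanks of 5503 and 5249 bp that scored 1.16 and 1.15. The gap measured 1166 bp in replicate 1, and in replicate 2 it was 1 bp over the joining limit. On 3R, the gap from 17434957 to 17436805 (1849 bp) had flanks of 8435 and 7851 bp that both scored 1.10, and it measured 2227 bp in replicate 1 and 3602 bp in replicate 2. On 3L, the gap from 17944791 to 17946209 (1419 bp) had flanks of 7795 and 7933 bp with scores of 1.07 and 1.14. These 3 pairs were close to symmetric in both width and score. The next pair, on 3L with the gap from 6745293 to 6745830 (538 bp), was not: its flanks were 8965 and 3965 bp wide and scored 1.20 and 1.05. Of the 6 gaps it changed least between lists, at 618 bp in replicate 1 and 687 bp in replicate 2. On 3L the gap from 14750100 to 14750721 (622 bp) had flanks of 3354 and 7578 bp that scored 1.01 and 1.06. On 3R the gap from 12887257 to 12888414 (1158 bp) had flanks of 7225 and 7356 bp that scored 1.01 and 1.17. Of these 6 pairs, 4 had flanks within 10% of each other in width.

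Among kept pairs with both flanks at least 4000 bp wide, 3 were nearest to equal width. On 2L the gap from 21099685 to 21100356 (672 bp) had flanks of 4769 bp on each side, with scores of 0.75 and 0.66. On 3R the gap from 10194145 to 10194671 (527 bp) had flanks of 7019 and 7020 bp, with scores of 0.65 and 0.82. Also on 3R, the gap from 24659936 to 24661125 (1190 bp) had flanks of 9086 and 9060 bp that scored 0.74 and 0.72. All 3 gaps were longer in both replicates than in the replicate set, and the last measured 6186 bp in replicate 1 and 3331 bp in replicate 2.

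Some strong pairs were bridged in 1 replicate once its regions were joined across 500 bp. The 3 with the highest lower score were all kept in replicate 1 and bridged in replicate 2. They were 3R from 9509645 to 9510173 (529 bp; scores of 1.08 and 1.01), 3R from 15470055 to 15470584 (530 bp; 0.99 and 0.98) and 2L from 870327 to 871376 (1050 bp; 0.94 and 1.14). Replicate 2 regions covered 85.4%, 77.0% and 63.9% of these gaps, and replicate 1 regions 0%, 17.2% and 0%. No called region of replicate 2 thus ran across a whole gap, and the bridging rested on the joining. In all, 27 gaps were kept in replicate 1 and bridged in replicate 2, and 3 the other way round.

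Many pairs shared a flank with another pair. The 906 pairs fell into 661 runs in which neighbouring pairs share a flank, and 425 pairs, or 46.9%, were in runs of 2 or more. There were 132 runs of 2 pairs, 33 of 3, 13 of 4 and 2 of 5. Of all 4435 gaps between adjacent domains on the 3 arms, 1281 were 500 to 2000 bp long, at any flank width. Of the domains next to a pair on its outer sides, 32.2% lay 500 to 2000 bp away, against 29.8%, 26.1% and 20.6% in the classes with longer gaps. These outer domains lay at a median of 3924 bp from its flanks, and 13.1% of them were wider than 10000 bp, against 4557.5 bp and 11.3% for pairs with gaps of 2000 to 5000 bp and 6667 bp and 9.06% for gaps over 10000 bp. The longest runs were both on 3R. That from 9484067 to 9520953 (36.9 kb) held 6 domains of 1180 to 9418 bp and gaps of 529 to 1372 bp, and 2 of its 5 gaps were kept in both replicates. Its domain scores ran from 0.40 to 1.08. That from 19056087 to 19086487 (30.4 kb) was more even, with 6 domains of 2967 to 5399 bp that scored 0.48 to 0.72. Its gaps were 541 to 1044 bp long, and 4 of the 5 were kept in both. The first of the runs of 4 pairs, on 2L from 4809859 to 4830794 (20.9 kb), had 5 domains of 1970 to 5264 bp, and 2 of its 4 gaps were kept in both.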

How the data were processed

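The deposited files are 3 lists of regions with significant enrichment: 1 per ChIP library and 1 for the replicate set. The sixth column of each deposited list is the authors' score, of unstated scale. The submitters' processing notes name Bowtie 0.12.7 for the reads, and coordinates are on FlyBase release 5, per the file headers. The region caller and its settings are not given in the sources used here. The lists hold no read numbers, so depth is unknown, and the Clopper-Pearson 95% intervals cover counting error over regions only. No input file was used.

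Regions were joined, paired and compared with Python 3.11.15, NumPy 2.4.6, pandas 2.3.3 and SciPy 1.17.1. The functions were tested on simulated lists with known answers. A joined domain's score is the width-weighted mean of its regions. The expected numbers are closed forms over gaps above 500 bp between flanks of 10000 bp or less on each arm. With 1 condition and overlapping sources, no test was made. Named pairs are the 6 with the highest lower flank score and the 3 with the most equal width (flanks of 4000 bp or more) among those kept in both replicates, the 3 with the highest lower score kept in 1 replicate and bridged in the other, and the 3 longest runs. The members and these choices were made with earlier results of these data known.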

Additional observations from a re-analysis of the deposited data

How the results depend on the processing

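The 906 pairs became 976 when regions were joined across 250 bp or less, 506 with flanks of 5000 bp or less and 263 with the higher-scoring 50% of regions; with 1 replicate list in place of the replicate set they were 778 to 1081. The median gap was 1079, 1115 and 1050 bp under the first 3 settings and 1051.5 to 1052 bp with 1 replicate list, against 1080.5 bp. The median width ratio was 0.588, 0.671 and 0.651, then 0.612 to 0.614, and 0.610 where both flanks were single regions, against 0.586. The median score difference stayed within 0.11 to 0.14 on the replicate set under 5 settings and was 0.15 to 0.28 in the replicate lists (0.28 in replicate 2); the cause was not tested. The share of gaps kept in both replicates was 26.5% where 50% of a flank had to be covered, 19.0% with flanks of 5000 bp or less and 79.8% with the higher-scoring 50% of regions. It was 38.6% with replicate regions as called and 35.7% where at least 50% of the gap had to be uncovered. With 1 replicate alone it was 48.3% to 53.0%. In settings chosen after seeing the data it was 79.6% with both flank scores at or above the median and 66.5% with both flanks 2000 bp or wider. The expected number of pairs, 385, was 808 when fitted to gaps of 500 to 10000 bp, also chosen after seeing the data. No paired analysis was possible because the results come from no test between groups. Depth per library was unknown.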

Other observations

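The highest score on any flank, 3.78, belonged to the left flank of a pair on 2L (19356126 to 19357191, 1066 bp). Its partner of 1107 bp, beyond a gap of 828 bp, scored 0.43. Neither flank overlapped a region of replicate 1 or of replicate 2. The pair was chosen after its value was seen.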
